A study of Mus musculus with 4 samples.

Results

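The genes described here are 40 components of Wnt signalling, found as 40 rows among the 54446 of the deposited gene table by their symbols. They comprise 6 Wnt ligands, 9 Frizzled receptors, 4 co-receptors, 3 Dishevelled proteins, 5 genes of β-catenin and its destruction complex, 5 nuclear factors, 5 secreted antagonists and 3 genes of the R-spondin axis. The cells were satellite cells (muscle stem cells) isolated from the hindlimb of C57BL/6 mice and cultured in F10-based medium. One group of 2 libraries, called knockdown, received siRNA for 48 h against LncMyoD, a long non-coding transcript that takes its name from the nearby Myod1. The other group of 2 libraries, called control, carries "LncMyoD Control" in its titles, with no mention of siRNA there. It has control siRNA in its descriptions and "Control" as its treatment tag, although its treatment protocol names LncMyoD as the target. The labels give no age or sex, no siRNA sequence and no statement that replicates came from separate animals or cultures, so what a p-value is set against is the spread between these libraries, part or all of which may be technical. No row of the table carries the name LncMyoD (0 rows), so the depletion of the target was not checked here.

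Wnt proteins are secreted lipid-modified ligands that bind a Frizzled receptor together with a co-receptor. In the canonical branch, Lrp5 or Lrp6 is the co-receptor, Dishevelled proteins are recruited, and the complex of Axin, Apc and Gsk3b that marks β-catenin for breakdown is held back, so that β-catenin enters the nucleus and binds factors of the Tcf and Lef family. In non-canonical branches Ror receptors and planar polarity proteins act without β-catenin. In muscle, Wnt ligands are known for the induction of myogenesis in the embryo and for effects on the division and differentiation of satellite cells in regeneration.

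Values are FPKM (fragments per kilobase of transcript, scaled to all mapped fragments), which are per length and allow genes to be set beside each other. A gene was tested when its mean over the 4 libraries was at least 1 FPKM. The test was limma on log2(FPKM + 1), with p-values adjusted by the Benjamini-Hochberg method over all 10900 genes that passed, at a threshold of 0.05. Each log2 fold change is knockdown minus control on that scale, which understates the change of low genes. On a transcript 1 kb long, 1 FPKM corresponded to 36.7 to 41.1 reads of 150 nt, depending on the library. Of the markers of satellite cells and myoblasts, 8 of 9 passed the filter, with Myog at 2793 to 4196 FPKM, Myod1 at 583 to 698, Cdh15 at 111 to 148, Des at 221 to 287 and Myf5 at 6.11 to 8.20. Pax7, the factor of undifferentiated satellite cells, was low at 0.625 to 1.40 FPKM. Of the other cell types checked, endothelial Kdr, the leukocyte markers Ptprc and Adgre1, Schwann cell S100b and tenocyte Tnmd were listed at 0 in every library. The most abundant of the remaining markers of these cells were Scx of tenocytes at 12.6 to 18.6 FPKM, Cd14 of leukocytes at 1.05 to 2.87, Tek of endothelial cells at 0.801 to 2.45 and Ngfr of Schwann cells at 0 to 0.675. In bulk samples of this kind, fewer cells of a type and less RNA per cell cannot be told apart.

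Upstream sequence was available from RefSeq (GRCm38.p6) for 27 of the 40 genes, in 36 windows that run from 250 bases before to 50 bases after an annotated start. These windows were searched on both strands for CTTTGA, a core of the site bound by Tcf and Lef factors (TCAAAG on the other strand), and for CAGCTG, an E-box of the kind bound by myogenic factors, which reads the same on both strands. CTTTGA was in 5 of the 36 windows and in 16.0% of all 32851 windows of that length in the table, and CAGCTG was in 4 of the 36 and in 16.3% of all. The windows with CTTTGA were those of Fzd1, Ror1, Gsk3b and 1 each of Wnt5b and Lef1. The 250 bases before the start are shown for Fzd1 (chr5:4758217-4758466, minus strand), Ror1 (chr4:100095541-100095790, plus strand) and Wnt9a (chr11:59306680-59306929, plus strand). Fzd1 and Ror1 were chosen because they had the largest ratios of knockdown to control among the tested genes of the 40. A match in receptors chosen in this way does not link the motif to the difference. Wnt9a was the one ligand with a substantial level. Each is written 5′ to 3′ on the strand of its gene, with the searched motif in capitals.
Fzd1: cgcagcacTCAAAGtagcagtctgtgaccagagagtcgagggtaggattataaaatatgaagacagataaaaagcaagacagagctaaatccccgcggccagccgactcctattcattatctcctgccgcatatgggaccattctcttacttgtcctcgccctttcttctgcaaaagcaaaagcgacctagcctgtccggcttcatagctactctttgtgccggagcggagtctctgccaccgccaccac
Ror1: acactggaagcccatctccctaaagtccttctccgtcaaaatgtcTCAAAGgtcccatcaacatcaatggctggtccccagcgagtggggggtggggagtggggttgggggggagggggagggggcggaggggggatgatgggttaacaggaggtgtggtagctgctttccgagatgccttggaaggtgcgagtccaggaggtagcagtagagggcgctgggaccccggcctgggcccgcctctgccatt
Wnt9a: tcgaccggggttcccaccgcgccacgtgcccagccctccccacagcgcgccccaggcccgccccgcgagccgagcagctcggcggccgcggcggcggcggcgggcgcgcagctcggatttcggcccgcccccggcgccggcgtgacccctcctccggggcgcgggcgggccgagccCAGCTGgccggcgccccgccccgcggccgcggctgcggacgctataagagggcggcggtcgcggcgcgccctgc
The match begins 242 bases before the RefSeq start in Fzd1, 205 bases before it in Ror1 and 74 bases before it in Wnt9a. The gene model used for the reads of Fzd1 starts at 4758035, downstream of that RefSeq start, so its match lies further from the start of the model. G and C made up 51.2%, 62.4% and 84.4% of the 3 stretches. A match describes the letters only, and the files hold no measurement of binding.

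Most of the 40 genes were low, and a few carried most of the summed FPKM of the 40. The means over 4 libraries were 10 FPKM or more for 2 genes, from 1 to 10 for 14, from 0.1 to 1 for 14, below 0.1 but above 0 for 7, and 0 for 3. Ctnnb1, which codes for β-catenin, was the most abundant, followed by the ligand Wnt9a and the nuclear factor Tcf7l2. The ranges of these 3 over the libraries did not overlap with that of the next gene in the order. In the remaining 36 of 39 neighbouring pairs the ranges did overlap. The order of such neighbours does not hold beyond the spread between libraries. Genes further apart in the order could still be separated, as Gsk3b at 5.62 to 7.32 FPKM was from Dvl1 at 3.82 to 5.20. In total 16 of the 40 passed the filter. The nearest gene above it was Ror1 with a mean of 1.07 FPKM, and the nearest below was Fzd7 with 0.990.

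**Figure D1:**
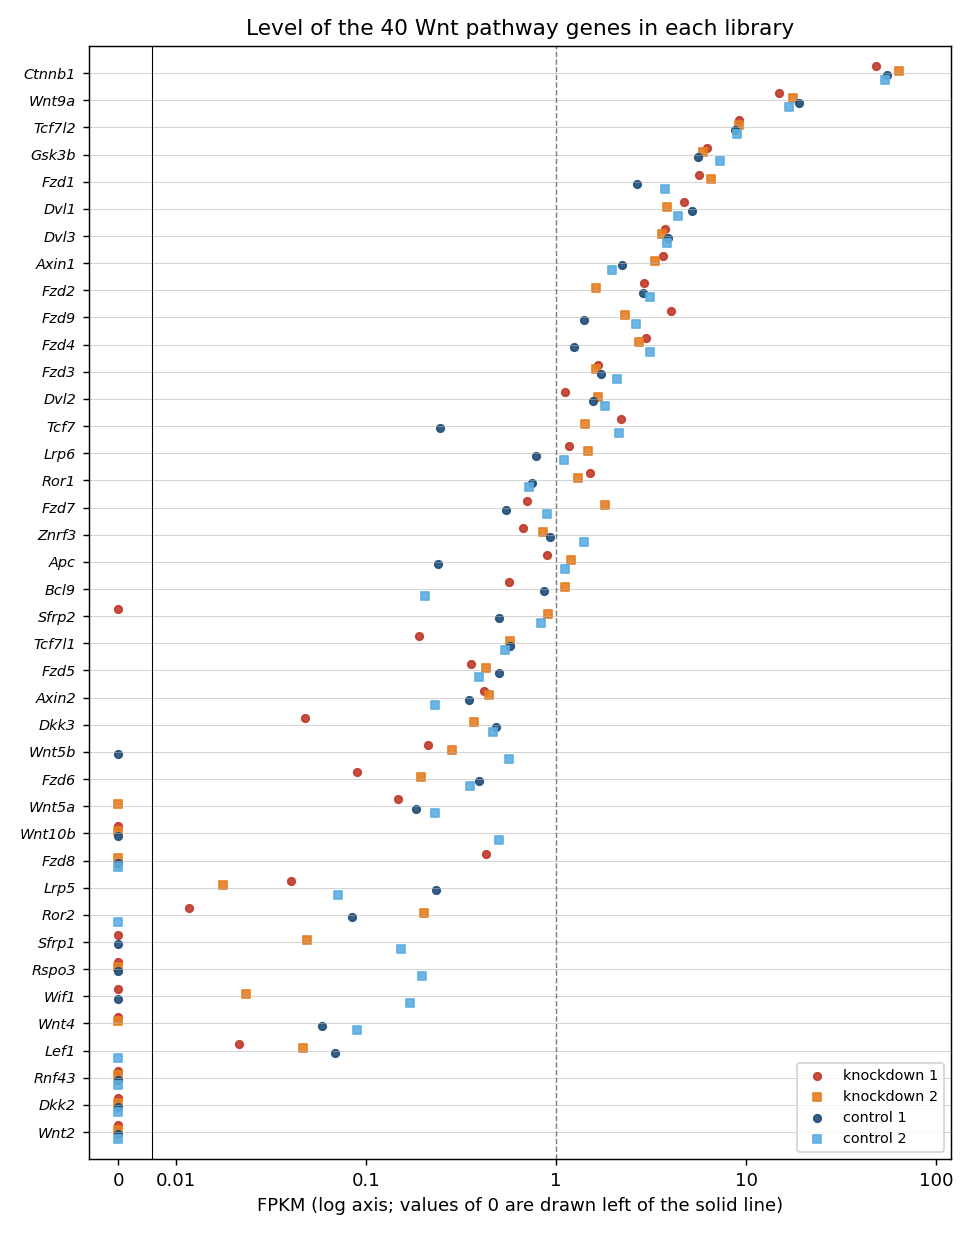
Level of each of the 40 genes in FPKM on a log axis, with 1 point per library and genes ordered by their mean; values of 0 are drawn left of the solid line and the dashed line marks 1 FPKM. Ctnnb1, Wnt9a and Tcf7l2 stand apart at the top, most genes overlap with their neighbours, and Rnf43, Dkk2 and Wnt2 are at 0 in all 4 libraries.

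Of the tested genes, 0 of 16 passed the adjusted threshold in either direction, where 6 of all 10900 genes did (0.055%), 0.00917% higher and 0.0459% lower. At an unadjusted limma p under 0.05 there were 2 of the 16, Fzd1 and Axin1, both higher in knockdown, beside 7.08% of all genes, of which 4.39% were on the higher side. Among the 16, log2 fold changes were positive in 9 (56.2%) and negative in 7, with a median of 0.04, beside 54.8% positive and a median of 0.03 over all genes tested. The 2 knockdown values exceeded the 2 control values for 5 of the 16, namely Fzd1, Lrp6, Ror1, Axin1 and Tcf7l2, and that order was seen in 22.1% of all genes. Both lay below for 2 of the 16, Fzd3 and Dvl3, beside 16.3% of all genes. With 16 genes these shares are coarse, and no test set them against the background. Ror1, and Lrp6 with a control mean of 0.946 FPKM, passed the filter only through the knockdown libraries.

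**Figure D2:**
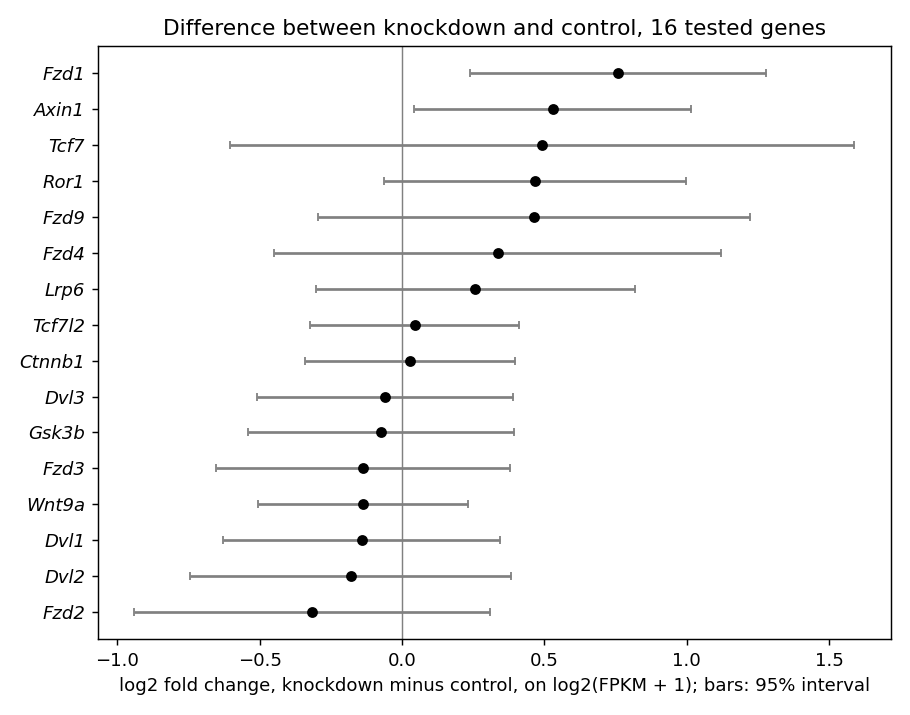
Log2 fold change of the 16 tested genes, knockdown minus control on log2(FPKM + 1), with bars for the 95% interval of limma. The intervals of Fzd1 and Axin1 lie above 0 before adjustment, and those of the other 14 include 0.

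Among the ligands, Wnt9a was the one with a substantial level (chromosome 11, 59306928 to 59333552, plus strand, GRCm38). It is a secreted Wnt best known from joint formation. It had 14.9 and 17.7 FPKM in the knockdown libraries and 19.0 and 16.9 in the controls, so the groups overlapped. The means were 16.3 ± 2.00 in knockdown and 18.0 ± 1.51 in control (SD, n = 2). Its log2 fold change was -0.14 ± 0.15 (SE), with a 95% interval of -0.50 to 0.23 and a limma adjusted p of 0.875. Its size rested on single libraries, from -0.02 without knockdown replicate 1 to -0.25 without knockdown replicate 2. Wnt9a made up 92.4% to 98.7% of the summed FPKM of the 6 ligands in each library.

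The other 5 ligands were below the filter and were not tested. Wnt5a, the best known non-canonical ligand, had 0.147 and 0 FPKM in the knockdown libraries and 0.184 and 0.230 in the controls. Wnt5b had 0.212 and 0.283 FPKM in the knockdown libraries and 0 and 0.568 in the controls, so both the lowest and the highest value were in control. Wnt10b, a canonical ligand that restrains fat cell formation, was listed at 0 in 3 libraries and had 0.501 FPKM in control replicate 2. That value amounts to 23.5 to 52.9 reads, depending on which annotated transcript they came from. Wnt4 was listed at 0 in both knockdown libraries and had 0.0589 and 0.0899 FPKM in control, or 9.67 and 14.7 reads. Wnt2 was listed at 0 in every library, where 3 reads on its transcript would give 0.0324 to 0.0363 FPKM. Of the 13 further Wnt genes of the mouse, 0 passed the filter, so that Wnt9a was the 1 ligand tested. Wnt3a, Wnt7a, Wnt7b and Wnt1 were among those listed at 0 in all 4 libraries, and Wnt10a had 0.542 and 0.230 FPKM in control and was listed at 0 in both knockdown libraries.

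The Frizzled genes code for the receptors with 7 membrane passes that bind Wnt ligands, and 5 of the 9 passed the filter. Fzd1 was the most abundant on average (chromosome 5, 4753839 to 4758035, minus strand; ENSMUSG00000044674), and its annotated transcript is a single exon of 4197 bases. It had 5.67 and 6.51 FPKM in the knockdown libraries and 2.68 and 3.76 in the controls, so that both knockdown libraries lay above both controls. These values correspond to 872, 1120, 440 and 616 reads. The means were 6.09 ± 0.594 FPKM in knockdown and 3.22 ± 0.767 in control (SD, n = 2), a ratio of 1.89. Its log2 fold change was 0.76 ± 0.21 (SE), with a 95% interval of 0.24 to 1.28, an unadjusted limma p of 0.0117 and an adjusted p of 0.607. The difference therefore did not pass the test over all genes. Leaving out each library in turn gave log2 fold changes of 0.57 to 0.95, with 0.57 without control replicate 1. The adjusted p ranged from 0.396 to 0.999 over the alternatives.

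The other tested Frizzled genes had groups that overlapped, or differed by less than their error. Fzd2 had 2.91 and 1.63 FPKM in the knockdown libraries and 2.86 and 3.13 in the controls, with knockdown replicate 2 alone low. The log2 fold change was -0.32 ± 0.26 (SE), and -0.03 without knockdown replicate 2. Fzd4, a receptor that also serves the ligand Norrin in vessels, had 2.96 and 2.73 FPKM in the knockdown libraries and 1.24 and 3.13 in the controls, with control replicate 1 alone low. Its log2 fold change was 0.34 ± 0.32 (SE), and -0.11 without control replicate 1. Fzd9 had 4.02 and 2.32 FPKM in the knockdown libraries and 1.41 and 2.63 in the controls, and the fitted log2 fold change was 0.46 ± 0.31 (SE). It was 0.16 without knockdown replicate 1 and 0.17 when control replicate 1 was left out. Fzd3, a receptor of axon guidance and planar polarity, had 1.66 and 1.62 FPKM in the knockdown libraries and 1.72 and 2.10 in the controls, so that knockdown lay below control by a small margin, and its log2 fold change was -0.14 ± 0.21 (SE). The limma adjusted p-values of Fzd2, Fzd3, Fzd4 and Fzd9 were 0.820, 0.918, 0.856 and 0.782.

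Fzd7, a receptor known for the expansion of satellite cells in response to Wnt7a, lay just below the filter, with 0.702 and 1.81 FPKM in the knockdown libraries and 0.547 and 0.902 in the controls. Its high value was in knockdown replicate 2 alone, and the groups overlapped. Fzd5 had 0.357 and 0.430 FPKM in the knockdown libraries and 0.500 and 0.395 in the controls. Fzd6 had 0.0896 and 0.195 FPKM against 0.393 and 0.354, so that both knockdown libraries lay below both controls at a level of at most 66.5 reads. Fzd8 was listed at 0 in 3 libraries and had 0.427 FPKM in knockdown replicate 1, or 93.6 reads. These 4 genes were not tested, and Fzd10, the remaining receptor of the family, was listed at 0 in every library.

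The 9 Frizzled genes together reached 18.8 and 17.2 FPKM in the knockdown libraries and 11.4 and 16.4 in the controls. The low sum was that of control replicate 1, in which Fzd1, Fzd4, Fzd7 and Fzd9 had their lowest values. Fzd1 took 30.2% and 37.8% of the sum in knockdown and 23.6% and 22.9% in control. The FPKM of Fzd1 was 1.95 and 3.99 times that of Fzd2 in the knockdown libraries and 0.936 and 1.20 times in the controls. Of all 16 tested genes, 7 had their lowest value in control replicate 1 (43.8%), beside 26.4% of all genes tested.

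**Figure D3:**
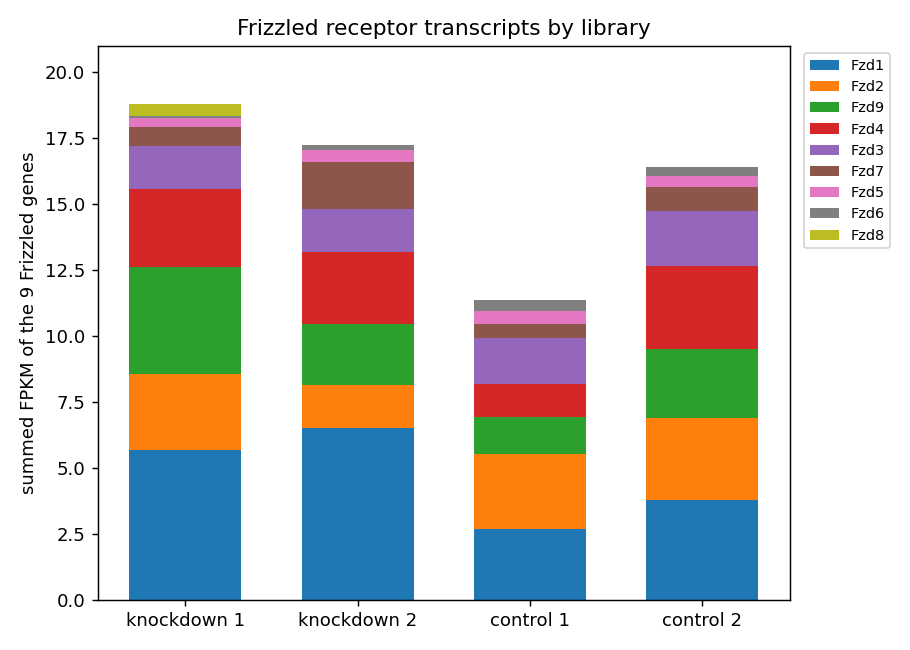
Summed FPKM of the 9 Frizzled genes in each library, with 1 colour per gene. Fzd1 takes 30.2% and 37.8% of the bar in knockdown and 23.6% and 22.9% in control, and control replicate 1 has the lowest sum (11.4 FPKM).

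Among the co-receptors, Lrp6 and Ror1 passed the filter, while Lrp5 and Ror2 were near 0. Ror1, a receptor tyrosine kinase family member that binds Wnt5a (chromosome 4, 100095791 to 100444765, plus strand; ENSMUSG00000035305), had 1.50 and 1.30 FPKM in the knockdown libraries and 0.746 and 0.723 in the controls. These values correspond to 317, 307, 168 and 162 reads on its single annotated transcript of 5762 bases. The means were 1.40 ± 0.143 and 0.734 ± 0.0164 FPKM (SD, n = 2), a ratio of 1.91, with no overlap between the groups. The log2 fold change was 0.47 ± 0.22 (SE), with a 95% interval of -0.06 to 1.00 and a limma adjusted p of 0.708. With a pseudocount of 0.1 FPKM in place of 1 it was 0.84, with an adjusted p of 0.725. Ror2, the paralogue of Ror1, had 0.0118 and 0.203 FPKM in the knockdown libraries and 0.0846 and 0 in the controls.

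Lrp6, the main canonical co-receptor, had 1.17 and 1.47 FPKM in the knockdown libraries and 0.787 and 1.10 in the controls. The margin between the groups was small, and the log2 fold change was 0.26 ± 0.23 (SE), with a 95% interval of -0.30 to 0.82 and a limma adjusted p of 0.841. It was 0.14 without control replicate 1, 0.17 without knockdown replicate 2 and 0.45 with a pseudocount of 0.1 FPKM. Lrp5 had 0.0404 and 0.0177 FPKM in the knockdown libraries and 0.234 and 0.0712 in the controls, at most 81.4 reads in any library. Lrp6 therefore exceeded Lrp5 in FPKM in every library, by a factor of 3.36 in control replicate 1 and of 15.5 to 83.2 in the others.

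The 3 Dishevelled genes, whose products pass the signal from Frizzled to the destruction complex, all passed the filter and differed little between the groups. Dvl1 had 4.70 and 3.82 FPKM in the knockdown libraries and 5.20 and 4.40 in the controls, with overlap. Dvl3 had 3.73 and 3.60 FPKM in the knockdown libraries and 3.88 and 3.85 in the controls, without overlap but within a narrow range. Dvl2 had 1.11 and 1.66 FPKM in the knockdown libraries and 1.57 and 1.81 in the controls, with overlap. Their log2 fold changes were -0.14, -0.06 and -0.18 for Dvl1, Dvl3 and Dvl2, with 95% intervals of -0.63 to 0.34, -0.51 to 0.39 and -0.75 to 0.38. With each library left out they ranged from -0.26 to -0.02 for Dvl1 and from -0.35 to -0.01 for Dvl2. Dvl2 shares 18.3% of its exonic bases with Acadvl on the opposite strand, a gene at 85.8 to 103 FPKM, and no strand setting is given for these values, so reads of both genes cannot be told apart there.

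Ctnnb1 (chromosome 9, 120929216 to 120960507, plus strand) codes for β-catenin, which acts both in the nucleus and in cell contacts. It had 48.0 and 63.6 FPKM in the knockdown libraries and 54.9 and 53.5 in the controls. The controls lay between the knockdown libraries, and the means were 55.8 ± 11.1 and 54.2 ± 1.00 FPKM (SD, n = 2). The log2 fold change was 0.03 ± 0.15 (SE), with a 95% interval of -0.34 to 0.40 and a limma adjusted p of 0.980, and its sign changed with the library left out. Gsk3b, the kinase that phosphorylates β-catenin, had 6.20 and 5.91 FPKM in the knockdown libraries and 5.62 and 7.32 in the controls, with a log2 fold change of -0.07 and a 95% interval of -0.54 to 0.39.

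Axin1, the scaffold of the destruction complex (chromosome 17, 26138688 to 26195811, plus strand; ENSMUSG00000024182), had 3.65 and 3.30 FPKM in the knockdown libraries and 2.23 and 1.97 in the controls. Both knockdown libraries lay above both controls, with means of 3.47 ± 0.246 and 2.10 ± 0.182 FPKM (SD, n = 2) and a ratio of 1.65. The log2 fold change was 0.53 ± 0.20 (SE), with a 95% interval of 0.04 to 1.02, an unadjusted limma p of 0.0374 and an adjusted p of 0.687. Axin1 therefore did not pass the test over all genes. Leaving out each library in turn gave 0.47 to 0.59, and the adjusted p ranged from 0.472 to 0.999 over the alternatives. Its 5 annotated transcripts run from 291 to 3777 bases, so that the reads behind these values are known only within wide bounds, 38.9 to 505 in knockdown replicate 1.

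Axin2, a second scaffold and the most used reporter of canonical signalling because β-catenin induces it, was below the filter. It had 0.420 and 0.446 FPKM in the knockdown libraries and 0.350 and 0.231 in the controls, and the groups did not overlap. These levels rest on at most 38.4 to 77.9 reads per library, and no test was made. Axin1 exceeded Axin2 in FPKM in every library, by a factor of 6.37 to 8.68. Apc, the large scaffold lost in intestinal tumours, had 0.901 and 1.19 FPKM in the knockdown libraries and 0.240 and 1.12 in the controls, with control replicate 1 alone low, and was not tested.

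Of the nuclear factors, Tcf7l2 was the main one in every library and took 74.4% to 83.2% of the summed FPKM of the 5. Tcf7l2 (chromosome 19, 55741820 to 55933654, plus strand) had 9.12 and 9.16 FPKM in the knockdown libraries and 8.71 and 8.95 in the controls. The means were 9.14 ± 0.0301 and 8.83 ± 0.170 FPKM (SD, n = 2), a ratio of 1.03, and the ratio of the highest to the lowest library was 1.05, the smallest among the tested genes of the 40. Its fitted log2 change was 0.04, with a 95% interval of -0.32 to 0.41. The sign was negative after quantile normalization.

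Tcf7, which codes for TCF1, had 2.19 and 1.43 FPKM in the knockdown libraries and 0.247 and 2.14 in the controls. Control replicate 1 was low, with 16.8 to 23.9 reads against 102 to 206 in the other libraries. The log2 fold change was 0.49 ± 0.45 (SE), with a 95% interval of -0.60 to 1.59 and a limma adjusted p of 0.846, and it was -0.17 without control replicate 1. Tcf7l1, mostly a repressor, had 0.190 and 0.576 FPKM in the knockdown libraries and 0.572 and 0.541 in the controls, and Bcl9, which links β-catenin to Pygo proteins, had 0.564 and 1.11 in the knockdown libraries and 0.868 and 0.205 in the controls. Lef1, the factor named with Tcf and itself a known target of the pathway, had 0.0215 and 0.0470 FPKM in the knockdown libraries and 0.0687 and 0 in the controls, at most 9.83 reads. Tcf7l1, Bcl9 and Lef1 were below the filter, and the groups overlapped for each.

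The secreted antagonists were low or not detected, and 0 of 5 passed the filter. Sfrp2, a decoy that binds Wnt ligands, was listed at 0 in knockdown replicate 1 and had 0.905 FPKM in knockdown replicate 2 and 0.499 and 0.832 in control. Dkk3, a divergent member of the Dickkopf family, had 0.0481 and 0.371 FPKM in the knockdown libraries and 0.485 and 0.466 in the controls, with knockdown replicate 1 alone near 0. Sfrp1 was listed at 0 in replicate 1 of both groups and had 0.0493 FPKM in knockdown replicate 2 and 0.154 in control replicate 2. Wif1, which also binds Wnt ligands outside the cell, had 0.0233 and 0.172 FPKM in the same replicates and was listed at 0 in the others. Dkk2, an inhibitor that binds Lrp co-receptors, was listed at 0 in every library, where 3 reads would give 0.0197 to 0.0221 FPKM.

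R-spondins amplify Wnt signals by removing the ubiquitin ligases Rnf43 and Znrf3, which clear Frizzled receptors from the cell surface. Znrf3 had 0.669 and 0.857 FPKM in the knockdown libraries and 0.932 and 1.40 in the controls. The groups did not overlap, but the mean of 0.963 FPKM was below the filter and no test was made. Rnf43 was listed at 0 in all 4 libraries, where 3 reads on its longest transcript would give 0.0170 to 0.0190 FPKM. Rspo3 was listed at 0 in 3 libraries and had 0.197 FPKM in control replicate 2. Of the 6 further genes of this axis, Rspo1, Rspo2, Rspo4, Lgr4, Lgr5 and Lgr6, 0 passed the filter.

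**Figure D4:**
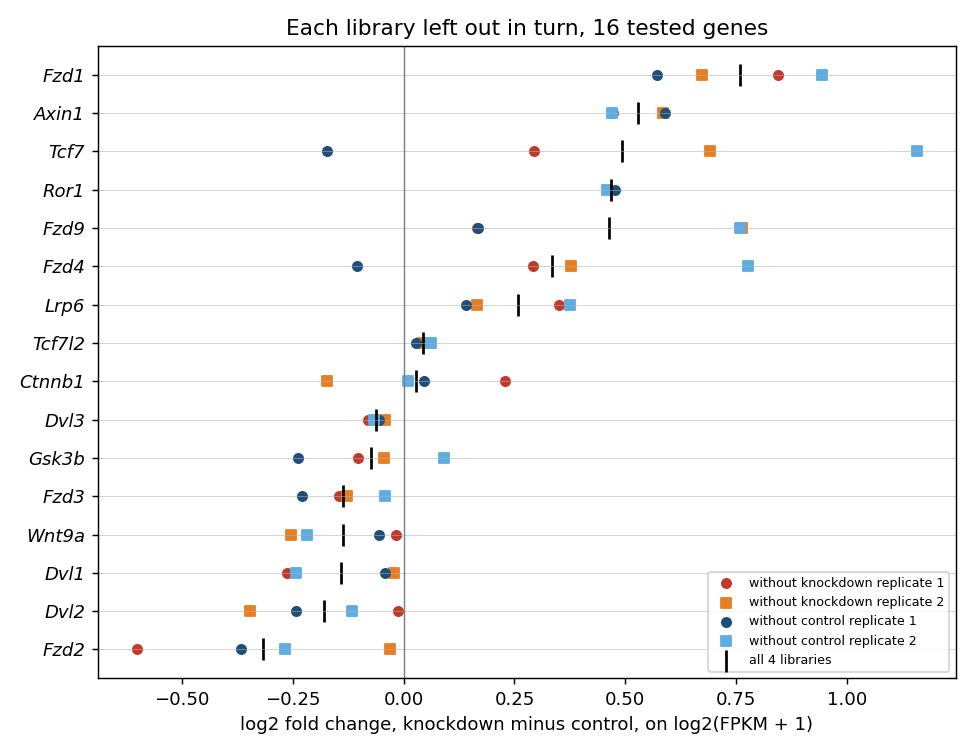
Log2 fold change of the 16 tested genes with all 4 libraries (black bars) and with each library left out (coloured points), knockdown minus control on log2(FPKM + 1). Tcf7 and Fzd4 fall below 0 without control replicate 1, Fzd1 and Axin1 stay between 0.47 and 0.95, and Ror1 has no value without either knockdown library because its mean then falls below 1 FPKM.

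Beyond the 40, lists of other Wnt pathway genes held 102 genes, of which 51 passed the filter and 0 were called in either direction. At an unadjusted limma p under 0.05 there were 3 higher and 3 lower, where 4.39% of all genes were higher and 2.70% lower. Log2 fold changes were positive in 33 (64.7%) and negative in 18, with a median of 0.11, beside 54.8% positive and a median of 0.03 over all genes. Both knockdown values exceeded both control values in 21 of the 51 and lay below them in 11, beside 22.1% and 16.3% of all genes. Control replicate 1 held the lowest value for 20 of the 51 (39.2%, beside 26.4% of all genes). Igfbp4 and Tle3, with control means of 0.684 and 0.862 FPKM, passed the filter only through the knockdown libraries.

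The machinery that makes and exports Wnt ligands had 5 tested genes, with a median log2 fold change of 0.07. Porcn, the enzyme that attaches the lipid to Wnt proteins, had 13.2 and 13.0 FPKM in the knockdown libraries and 15.7 and 15.1 in the controls, and the fitted log2 fold change was -0.22 (limma adjusted p 0.764). Tmed2, a cargo receptor of early secretion, had 159 and 317 FPKM in the knockdown libraries and 336 and 344 in the controls, with knockdown replicate 1 alone low. The fold change on the log2 scale was -0.59 with a limma adjusted p of 0.717. It was -1.09 with an adjusted p of 0.0376 without knockdown replicate 2, and -0.10 without knockdown replicate 1. Among other receptors and planar polarity genes, 7 were tested with a median of 0.18. Daam1, a formin downstream of Dishevelled, had 2.75 and 3.05 FPKM against 2.14 and 2.24, and the polarity protein gene Vangl2 had 1.50 and 2.48 against 1.16 and 1.65.

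Of the other antagonists 4 of 13 were tested, with a median of 0.06. Kremen2, a receptor for Dickkopf proteins, had 2.51 and 0.928 FPKM in the knockdown libraries and 3.25 and 3.72 in the controls, and the fitted log2 fold change was -0.78 ± 0.32 (SE; limma adjusted p 0.698). The value was -1.22 without knockdown replicate 1 and -0.35 without knockdown replicate 2. Igfbp4, a binding protein of insulin-like growth factors that also acts on Lrp6, had 1.15 and 1.77 FPKM in the knockdown libraries and 0.750 and 0.618 in the controls, and the fitted log2 fold change was 0.54 (limma adjusted p 0.698). Genes of the destruction complex and of β-catenin turnover had 15 tested members and a median of 0.01. Dact1, which binds Dishevelled, had 2.17 and 2.86 FPKM in the knockdown libraries and 4.14 and 4.75 in the controls, and the fitted log2 fold change was -0.64 ± 0.21 (SE; limma adjusted p 0.645). Ppp2r1a, a scaffold subunit of protein phosphatase 2A, had 63.5 and 77.8 FPKM against 52.7 and 63.0.

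Nuclear co-factors had 12 tested members, 11 of them with positive values (91.7%, beside 54.8% of all genes), and a median of 0.23. Of the 12, 6 had their lowest value in control replicate 1 (50%, beside 26.4% of all genes). The list was chosen with earlier results of these data known, so these shares are a description only. Jup, which codes for plakoglobin, the relative of β-catenin in cell junctions, had 14.6 and 20.8 FPKM in the knockdown libraries and 9.88 and 12.7 in the controls. Its log2 fold change was 0.60 ± 0.21 (SE) with a limma adjusted p of 0.664, and it was 0.36 without knockdown replicate 2. Ctbp1, a co-repressor, had 15.1 and 15.5 FPKM in the knockdown libraries and 10.2 and 12.3 in the controls, and the fitted log2 fold change was 0.42 (limma adjusted p 0.675). The groups did not overlap for either gene.

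Genes known as targets of β-catenin in other settings had 10 of 23 members above the filter, with 5 positive, 5 negative and a median of -0.03. This list holds 6 of the 40 genes, of which Tcf7 was tested, and it shares Porcn with the list of ligand export. Without the 6, 9 of 17 were tested, 4 positive and 5 negative, and the median was -0.21. Wisp1, a matricellular protein gene found through its induction by Wnt1, had 72.5 and 75.3 FPKM in the knockdown libraries and 63.5 and 61.5 in the controls, and the fitted log2 fold change was 0.24 (limma adjusted p 0.695). Myog, the factor of differentiating myoblasts, had 3406 and 2793 FPKM in the knockdown libraries and 4196 and 3931 in the controls, and the fitted log2 fold change was -0.40 (limma adjusted p 0.607). Of the same list, Myc, Cd44 and Ccnd1 averaged 58.3, 43.5 and 10.2 FPKM, while Sp5 and Notum were listed at 0 in every library, Nkd1 had at most 0.295 FPKM and Lgr5 at most 0.143. These 7 were picked out after their values were seen.

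**Figure D5:**
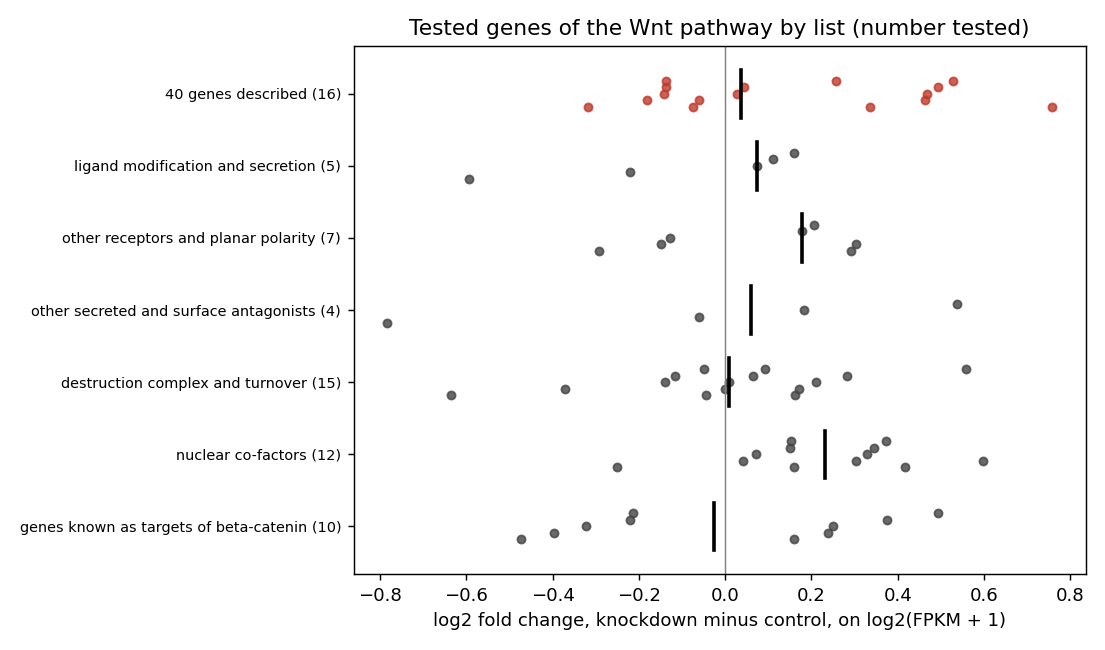
Log2 fold changes of tested genes, knockdown minus control on log2(FPKM + 1), with 1 point per gene and a bar at the median. The 40 genes described are in red and each list of the pathway is in grey. Tcf7 is drawn with both the 40 and the targets of β-catenin, and Porcn in 2 lists. The medians lie between -0.03 and 0.23, and 0 of these genes passed the adjusted threshold.

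The summed levels of markers of other cells differed between the groups in part. The summed FPKM of 8 markers of fibro-adipogenic progenitors and fibroblasts was 32.6 and 34.5 in the knockdown libraries and 25.4 and 25.9 in the controls. That sum is nearly all Col3a1 and Cd34, while 6 of the 8, Pdgfra and Dcn among them, stayed under 1 FPKM in every library. Cd34, which quiescent satellite cells also carry, had 4.53 and 4.62 FPKM in the knockdown libraries and 1.37 and 1.17 in the controls, with a log2 fold change of 1.30 and a limma adjusted p of 0.265. The markers of satellite cells and myoblasts summed to 4733 and 4296 FPKM in the knockdown libraries and 5820 and 5529 in the controls, most of it Myog. Smooth muscle and pericyte markers summed to 2673 and 2578 FPKM in the knockdown libraries and 3169 and 3025 in the controls. Nearly all of it was Acta2, which cultured myoblasts also express, and Myh11 had at most 0.0337 FPKM. Of the same markers, Mcam had 0.826 and 0.570 FPKM in the knockdown libraries and 2.22 and 1.94 in the controls (limma adjusted p 0.607), while Pdgfrb, which was below the filter, had 0.461 and 0.634 in knockdown and 0.150 and 0.184 in control. Tenocyte markers summed to 14.6 to 22.0 FPKM over the libraries, mostly Scx, leukocyte markers to 2.27 to 3.40, endothelial markers to 0.905 to 2.73 and Schwann cell markers to 0.0113 to 1.40, with overlap between the groups. The part of these cells in the values of Fzd1, Ror1, Axin1 and the other genes was not tested.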

How the data were processed

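Tools listed in the submitters' processing notes, with no role or order, are StringTie 1.3.3, HISAT2 2.1.0, Trimmomatic 0.36, SAMtools 1.3 and bcl2fastq 2.19, and the build is mm10. Per the labels' protocols, polyadenylated RNA was turned into cDNA with the SMART-Seq v4 kit and sequenced as paired reads of 150 nt. The deposited table holds 1 FPKM value per gene and library, as the authors computed it; this unit was inferred from the numbers themselves. Strand setting and annotation release: not given in the sources used here. GENCODE M21 (GRCm38, equivalent to mm10) supplied the gene models. Reads per FPKM were derived from genes with 1 exon and 1 transcript, where 85.6% to 86.2% of the products of FPKM and length were whole multiples of the worth of 1 base, within 0.1 of it. Amplified cDNA without molecular identifiers makes such reads less independent than their number. Whole counts were not recovered for genes with several transcripts, so no count model was used.

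Differences were fitted on log2(FPKM + 1) by limma 3.58.1 (R 4.3.3), trend included, two-sided, for the 10900 genes averaging 1 FPKM or more, with 4.09 prior degrees of freedom beside 2 residual ones. The median half-width of its 95% interval was 0.48. The fit was also run on simulated data drawn from its own fitted prior, after a first version of the simulation was changed. That run is therefore no independent check of the fit. Python 3.11.15, numpy 2.4.6, pandas 2.3.3 and matplotlib 3.10.9 were used for summaries. The members and lists were chosen with earlier results of these data known. All 40 members are named; of each pathway list the rule named the 2 tested genes with the lowest unadjusted p, since 0 passed. Alternatives were a replicate block, quantile and median-ratio scaling, a pseudocount of 0.1, no filter, a filter at 5 FPKM, no trend, and each library left out.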

Additional observations from a re-analysis of the deposited data

How the results depend on the processing

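Across the 11 alternatives, 0 of the 40 genes passed the adjusted limma threshold, including the 37 tested without a filter; 0 to 4 had an unadjusted p under 0.05, the 4 without a filter. The count over all genes was 6, and it was 3 with a replicate block, 0 with no filter (1508 of 24969 at an unadjusted p under 0.05), and 5 to 15 with each library left out, the 15 without knockdown replicate 1. Same-numbered libraries did not deviate together (correlation of their differences -0.02 across 10900 genes). A single correlation cannot settle whether they were paired, since a small shared effect could be missed. With the replicate block the lowest limma adjusted p among the 16 tested genes was 0.75. In the alternatives that kept all 4 libraries, no call changed among these 16 or among the 12 other pathway genes named by the rule. The count over other pathway genes was 0 to 1 with each library left out, the 1 being Tmed2 without knockdown replicate 2. The median over the tested members of the 40 was 0.04. It was -0.061 over 37 genes with no filter and -0.048 to 0.092 with each library left out, negative without knockdown replicate 2 and without control replicate 1. Ctnnb1 had -0.00080 with median-ratio scaling and Tcf7l2 -0.0045 with quantile normalization, where the shift of all genes was 0.0012 and -0.0049. With each library left out, log2 fold changes ranged from -0.17 to 1.16 for Tcf7, -0.17 to 0.23 for Ctnnb1, -0.24 to 0.092 for Gsk3b and -0.11 to 0.78 for Fzd4. Where 1 library remains in a group, it is assumed to vary like the other group. The filter at 5 FPKM left 4 of the 16. The cause of these shifts was not tested. Depth limits most the genes on few reads, such as Lef1 with at most 9.83 and Wnt4 with at most 14.7 in a library.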
